A study of Mus musculus with 34 samples.

Results

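The 8 naive-state transcription factors, Tfcp2l1, Esrrb, Nr5a2, Nr0b1, Tbx3, Prdm14, Gbx2 and Zfp42, were taken by exact symbol from the deposited RNA-seq table, which has 23366 rows. All 8 had a mean normalized count of at least 10 and were among the 12993 genes tested. The 4 libraries came from mouse embryonic stem cells (mESCs) of the J1 line, so every value is from 1 line. Cells were kept in serum without LIF, either alone (serum/-LIF, n = 2) or with the honey bee protein Royalactin at 0.5 mg/ml (serum/-LIF + Royalactin, n = 2), and the comparison asks which genes Royalactin changes when the self-renewal cytokine LIF is absent. The labels give passage 40 for both groups, a passage that differs from the one in the study's methods, and the series' design text speaks of biological replication for each experiment. A normalized count is the number of reads of a gene scaled by 1 factor per library, and all differences below are Royalactin over serum/-LIF on the log2(normalized count + 1) scale.

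Naive pluripotency is the state of the preimplantation epiblast, and mouse embryonic stem cells keep it through a small set of transcription factors that sit on top of the core factors Oct4 (Pou5f1) and Sox2. LIF acts through Stat3, and Wnt signalling relieves repression by Tcf3 (Tcf7l1), and these inputs reach factors such as Tfcp2l1 and Esrrb. Fgf-Erk signalling pushes cells out of this state, and the naive factors are lost early when cells move towards the primed epiblast while Pou5f1 is still expressed.

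Gene totals ran from 14737796 to 17597818 reads a library. Without the ribosomal precursor Rn45s they ran from 7878527 to 15999458, because it took 46.6% of the reads in replicate 1 and 21.6% in replicate 2 of serum/-LIF, and 38.4% and 9.08% in those of Royalactin. The Rn45s share thus differed more within each group than between the group means. RNA of the 10 embryonic stem cell markers was present in all libraries. Their summed normalized counts were 41254 and 44942 in serum/-LIF and 46944 and 51751 with Royalactin. Such a sum is led by the most abundant markers and does not show cell identity. The study describes a differentiated morphology of cells after LIF withdrawal.

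Of the 8 factors, 5 rose with Royalactin (limma, Benjamini-Hochberg adjusted p under 0.05 over all tested genes), namely Tfcp2l1, Esrrb, Nr5a2, Nr0b1 and Zfp42, and 0 fell, whereas 0.331% of tested genes were called higher. Gbx2, Prdm14 and Tbx3 had higher means with Royalactin without passing the adjusted threshold. All 8 had an unadjusted p under 0.05 with at least a 2-fold higher level, against 3.52% of tested genes, and for all 8 both Royalactin libraries lay above both serum/-LIF libraries, against 19.7% of tested genes. The median log2 fold change of the 8 was 2.87 and that of all tested genes was -0.0076. The 8 factors were chosen with earlier results of these data known, so these contrasts are descriptive and no independent test. The calls depended on 3 of the 4 libraries: 0 of the 8 passed the adjusted threshold in limma without serum/-LIF replicate 1, Royalactin replicate 1 or Royalactin replicate 2, where 7, 6 and 7 of them had an unadjusted p under 0.05 at a 2-fold difference, and 5 passed without serum/-LIF replicate 2. With any of those 3 libraries left out, 0 genes of the whole table were called higher in limma, which holds for each gene named below as risen, while 2518, 519 and 547 genes had an unadjusted p under 0.05. In these bulk libraries, fewer cells that express a factor and less of its RNA per cell cannot be told apart.

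**Figure D1:**
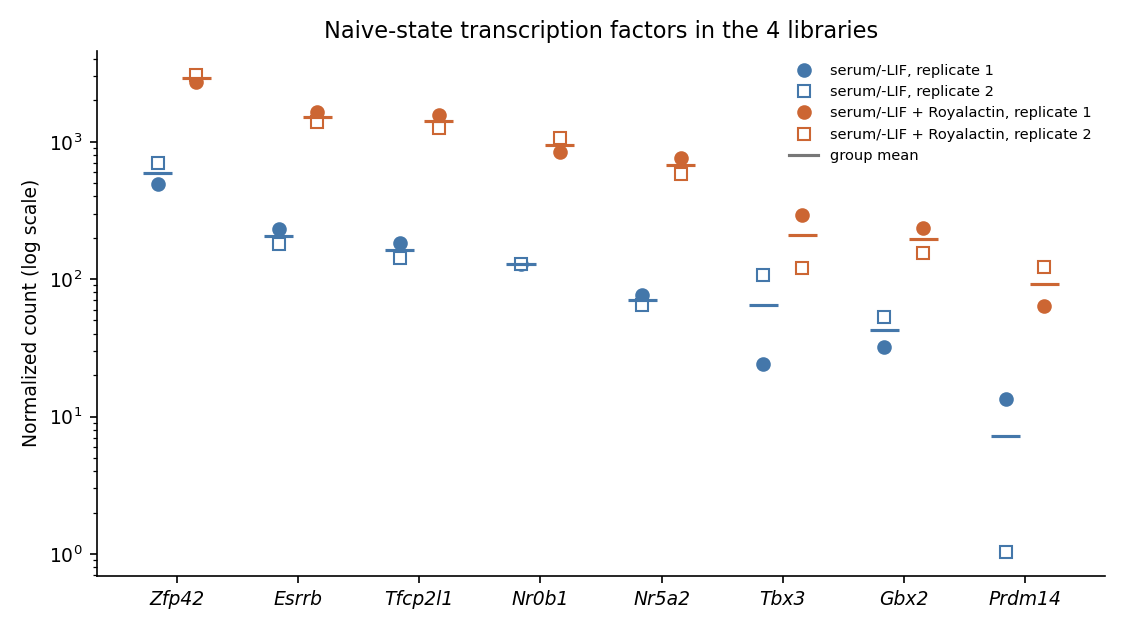
Normalized count (log axis) of each factor in each of the 4 libraries, with serum/-LIF in blue and serum/-LIF + Royalactin in orange, filled circles for replicate 1, open squares for replicate 2 and a line at each group mean. Every orange point lies above both blue points of its gene, most narrowly for Tbx3, where the Royalactin replicate 2 stands at 121 and the serum/-LIF replicate 2 at 107.

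Tfcp2l1, a grainyhead-like factor and direct target of LIF-Stat3 signalling, lies on the plus strand of chromosome 1 from 120524522 to 120581744 (mm9, the files' build). Its normalized count was 185 and 143 in serum/-LIF, and with Royalactin it was 1560 and 1262. The groups were far apart, with the lower Royalactin library 6.84 times the higher serum/-LIF library. The exons of Tfcp2l1 overlap a U1 gene on the same strand, and how reads there were counted is not given in the sources used here. The log2 fold change was 3.10 (SE 0.35, 95% interval 2.36 to 3.85, limma adjusted p = 0.00273). The 250 bases before its RefSeq start, chr1:120524272-120524521 on the plus strand, are shown because they hold a TATA box of the letters TATAAA, in capitals, at the usual distance from a start.
Tfcp2l1: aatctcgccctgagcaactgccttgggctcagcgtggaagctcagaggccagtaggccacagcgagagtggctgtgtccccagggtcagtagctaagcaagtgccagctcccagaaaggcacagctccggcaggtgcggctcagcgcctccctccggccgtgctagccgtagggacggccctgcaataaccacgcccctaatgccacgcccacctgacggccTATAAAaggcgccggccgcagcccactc
The TATA box began 28 bases before the start. TATAAA, on either strand, was found in 13.6% of the 32851 RefSeq windows of the same length (250 bases before to 50 after a start) and in 3 of the 8 windows of these factors.

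Esrrb, an orphan nuclear receptor of the estrogen-related family that can stand in for Nanog in self-renewal, is encoded on the plus strand of chromosome 12 (87702067 to 87862578). Esrrb was read at 233 and 181 normalized counts in serum/-LIF and at 1641 and 1390 with Royalactin. Again both Royalactin libraries were several times higher than either serum/-LIF library. Its log2 fold change was 2.87 (SE 0.33, 95% interval 2.15 to 3.59, limma adjusted p = 0.00273). RefSeq gives an outer and an inner start, and the 250 bases before the inner start, chr12:87762344-87762593 on the plus strand, lie within an intron of the longer transcript. They are shown for a Klf-type box (GGGTGGG, here on the minus strand) and a CCAAT box, in capitals, beginning 104 and 55 bases before the start.
Esrrb inner start: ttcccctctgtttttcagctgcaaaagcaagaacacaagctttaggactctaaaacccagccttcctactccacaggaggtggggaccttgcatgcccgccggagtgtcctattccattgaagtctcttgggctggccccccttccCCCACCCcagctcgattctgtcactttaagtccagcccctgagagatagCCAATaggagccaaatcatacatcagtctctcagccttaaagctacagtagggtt
The outer start also had a Klf-type box, 38 bases before it. Klf-type boxes were present in 17.5% and CCAAT boxes in 37.4% of all windows, and in 4 and 3 of the 8 windows of these factors. The longer motif that Esrrb and Nr5a2 bind, TCAAGGTCA, was in 0 of the 8 windows and in 0.423% of all windows.

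Nr5a2 (Lrh-1), a nuclear receptor that binds regulatory elements of Pou5f1 in the epiblast, lies on the minus strand of chromosome 1 between 138740161 and 138857004. It had 76.2 and 65.2 normalized counts in serum/-LIF and 765 and 582 with Royalactin. The lower Royalactin library exceeded the higher serum/-LIF library by 7.63 times, the widest gap among the 8 factors. The log2 fold change of Nr5a2 was 3.22 (SE 0.42, 95% interval 2.32 to 4.13, limma adjusted p = 0.00333).

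Nr0b1 (Dax1), a nuclear receptor without the usual DNA-binding domain that acts as a partner and repressor of other factors, including Nr5a2, lies on the plus strand of chromosome X (83437103 to 83441286). Its normalized counts were 129.7 and 129.4 in the serum/-LIF libraries and 844 and 1059 in the Royalactin libraries. The serum/-LIF replicates were nearly equal, and here replicate 2 was the higher Royalactin library, unlike for Tfcp2l1, Esrrb and Nr5a2. The difference was 2.86 in log2 (SE 0.36, 95% interval 2.07 to 3.64, limma adjusted p = 0.00333). The 250 bases before its RefSeq start, chrX:83436864-83437113 on the plus strand, also carry TATAAA, in capitals, 32 bases before the start, and their last few bases lie in the annotated first exon.
Nr0b1: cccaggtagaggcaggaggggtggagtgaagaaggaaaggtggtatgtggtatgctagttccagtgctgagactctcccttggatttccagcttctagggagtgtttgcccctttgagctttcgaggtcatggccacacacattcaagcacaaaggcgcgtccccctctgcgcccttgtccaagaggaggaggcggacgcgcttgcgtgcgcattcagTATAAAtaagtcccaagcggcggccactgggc
The third TATAAA among these windows was far from a start, 181 bases before the outer start of Nr5a2 and on the strand opposite to the gene.

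Zfp42 (Rex1), a zinc-finger protein used as the classic reporter of the naive state, lies on the minus strand of chromosome 8 from 44380422 to 44392363. Its normalized counts were 491 and 704 in serum/-LIF and 2726 and 3083 with Royalactin. The groups did not overlap, although the fold was the smallest among the called factors. Its log2 fold change was 2.30 (SE 0.31, 95% interval 1.64 to 2.96, limma adjusted p = 0.00371). Of 152 tiles of 75 bases over its exons, 57.2% also matched elsewhere in the genome with at most 2 mismatches, all on 1 chromosome. Reads could thus have been shared with a near-identical copy, and the level of Zfp42 is uncertain. In each of the other factors at most 3.81% of tiles matched elsewhere. The 250 bases before the start of Zfp42, chr8:44392364-44392613 on the minus strand, are shown because they hold more of the searched motifs than any other window of these factors. The capitals mark, in order, an octamer (ATTTGCAT, the letters bound by Oct4) beginning 186 bases before the start, Klf-type boxes at 158 and 118, GC boxes (GGGCGG) at 91 and 79, and a CCAAT box at 51, on either strand.
Zfp42: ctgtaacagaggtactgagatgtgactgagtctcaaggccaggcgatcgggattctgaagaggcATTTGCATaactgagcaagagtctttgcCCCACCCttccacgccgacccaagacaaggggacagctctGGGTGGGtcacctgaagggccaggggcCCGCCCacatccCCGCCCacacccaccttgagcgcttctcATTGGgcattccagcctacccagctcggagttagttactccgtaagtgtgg
The octamer was in 1 of the 8 windows and in 1.74% of all windows, and GC boxes were in 2 of the 8 and in 35.7% of all. The Stat3 letters TTCCNGGAA and the Tcf letters CTTTGAT were in 0 of the 8 windows, and in 1.15% and 3.73% of all windows. RefSeq windows were at hand for 6 of the 8 factors, without Tbx3 and Prdm14, and such matches describe letters, not bound sites.

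Gbx2, a homeobox factor that acts downstream of LIF-Stat3 in self-renewal, lies on the minus strand of chromosome 1 (91824537 to 91829865). Its normalized counts were 32.1 and 52.8 in serum/-LIF and 234 and 155 with Royalactin, values that rest on 24, 51, 233 and 225 reads. The lower Royalactin library was 2.93 times the higher serum/-LIF library. The log2 fold change was 2.18 (SE 0.59, 95% interval 0.92 to 3.45), with an unadjusted p of 0.00248 and a limma adjusted p of 0.172. The exons of Gbx2 overlap those of the antisense gene D130058E05Rik, and whether counting used strand is not given in the sources used here, so reads of the pair cannot be told apart. The Gbx2 window held GC boxes 137 bases before and 44 bases after the start and an E-box (CACGTG, in 7.15% of all windows) 74 bases before it. The bases before this RefSeq start overlap annotated exons of Gbx2 itself and of D130058E05Rik.

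Prdm14, a PR-domain factor that represses Fgf receptor genes and de novo DNA methyltransferases in embryonic stem and germ cells, lies on the minus strand of chromosome 1 (13103538 to 13117244). It was nearly silent in serum/-LIF, with 10 and 1 reads, or 13.4 and 1.04 normalized counts, and had 63 and 178 reads, or 63.4 and 123 normalized counts, with Royalactin. Summed over libraries, 11 reads stood against 241, a ratio of 15.3 after scaling (95% counting interval 8.42 to 31.2, which covers counting error only). The log2 fold change of 4.04 was the highest of the 8 but also the least precise (SE 1.19, 95% interval 1.48 to 6.61, limma adjusted p = 0.220). Leaving out serum/-LIF replicate 2, the library with 1 read, brought it to 2.63, and leaving out serum/-LIF replicate 1 brought it to 5.45.

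Tbx3, a T-box factor placed downstream of PI3K-Akt signalling in the LIF network, lies on the plus strand of chromosome 5 (120120678 to 120134733) and overlaps exons of the antisense gene Gm2301, from which its reads cannot be told apart either. Its normalized counts were 24.1 and 107 in serum/-LIF and 295 and 121 with Royalactin. The replicates of each group were far apart, and the serum/-LIF replicate 2 came within a factor of 1.14 of the Royalactin replicate 2. The 95% counting intervals of those libraries, 87.0 to 129 and 104 to 140 normalized counts, overlapped. The log2 fold change was 1.87 (SE 0.72, 95% interval 0.33 to 3.42, limma adjusted p = 0.404), and it ran from 0.82 without serum/-LIF replicate 1 to 2.92 without serum/-LIF replicate 2.

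The called and the uncalled factors differed in how close their replicates were, a contrast partly built in, because this spread enters the calls. The uncalled factors also had the lowest mean normalized counts of the 8 (Tbx3 137, Gbx2 119 and Prdm14 50.1). Those of the called factors ran from 372 for Nr5a2 to 1751 for Zfp42. For Tfcp2l1, Esrrb, Nr5a2, Nr0b1 and Zfp42 the replicates differed by 0.0037 to 0.52 in log2 in serum/-LIF and by 0.18 to 0.40 with Royalactin, beside medians of 0.57 and 0.39 over all tested genes. The serum/-LIF replicates of Tbx3 and Prdm14 differed by 2.10 and 2.82, well over the serum/-LIF medians, and their Royalactin replicates by 1.28 and 0.94. Gbx2 stood between, at 0.70 and 0.59. The plot of differences with each library left out shows the same contrast, with the called factors staying close to their value from all 4 libraries.

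**Figure D2:**
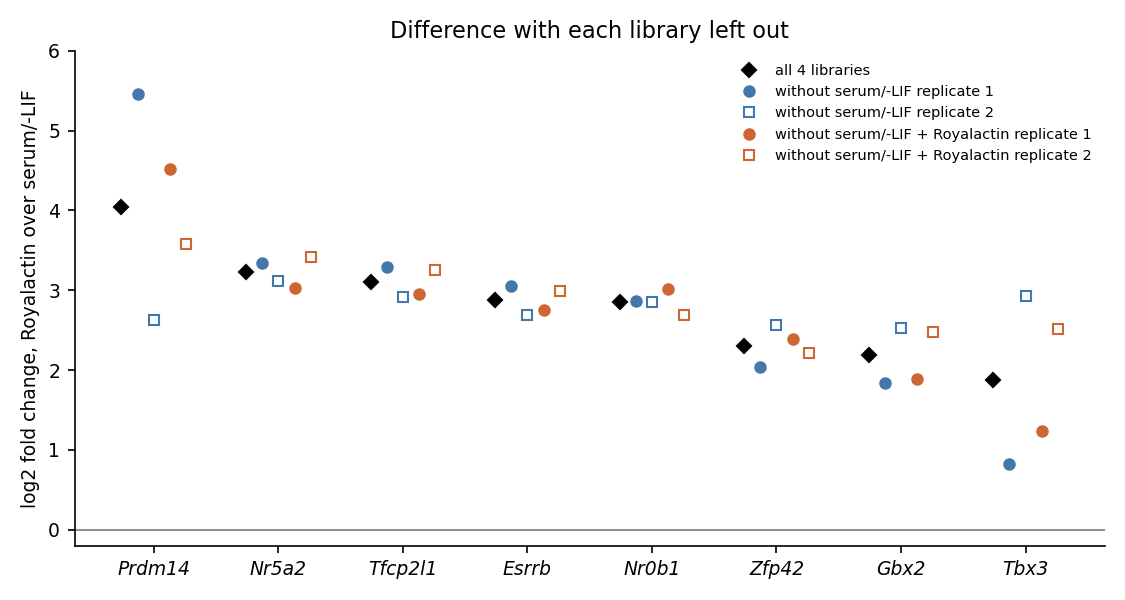
Log2 fold change (Royalactin over serum/-LIF) of each factor from all 4 libraries (black diamonds) and after leaving out 1 library at a time (blue for a serum/-LIF library, orange for a Royalactin library, circles for replicate 1 and open squares for replicate 2). All values lie above 0, with Prdm14 spread from 2.63 to 5.45 and Tbx3 from 0.82 to 2.92, whereas Tfcp2l1 stays between 2.92 and 3.29.

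Levels of different genes were compared per kilobase of annotated exon, since a longer gene collects more reads. In serum/-LIF, Zfp42 was highest at a mean of 332 normalized counts per kilobase, followed by Nr0b1 at 71.7 and Esrrb at 34.2. The level of Zfp42 here and below is uncertain, because much of its exon sequence matched elsewhere. Nr5a2 (18.4) and Tfcp2l1 (17.7) came next, and Tbx3 (12.2), Gbx2 (10.0) and Prdm14 (2.81) were lowest. With Royalactin the means per kilobase were 1614 for Zfp42, 526 for Nr0b1, 251 for Esrrb, 176 for Nr5a2 and 152 for Tfcp2l1, and then 45.9 for Gbx2, 38.8 for Tbx3 and 36.3 for Prdm14. Zfp42, Nr0b1 and Esrrb held the first places in this order in all 4 libraries. Nr5a2 and Tfcp2l1 did not differ beyond the spread of their libraries in either group, and neither did Gbx2 and Tbx3, while the libraries of Prdm14 overlapped those of both with Royalactin and those of Tbx3 in serum/-LIF. In serum/-LIF the wide spread of Tbx3 also took in both Nr5a2 and Tfcp2l1.

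The place of the 8 factors among all genes was read on the per-kilobase scale, whose median was 67.2 in serum/-LIF and 66.8 with Royalactin. In serum/-LIF, Esrrb lay above 35.2% of the 12610 tested genes with an exon length, Nr5a2 above 24.0% and Tfcp2l1 above 23.2%, and with Royalactin they lay above 79.2%, 72.3% and 69.2%. These receptors and Tfcp2l1 thus lay in the lower part of the distribution in serum/-LIF and in its upper part with Royalactin. Nr0b1 lay above 51.5% and 90.2% of genes in the respective groups, and Zfp42, whose level is uncertain, above 83.8% and 97.1%. Gbx2, Tbx3 and Prdm14 were in the lower part in both groups, above 41.2%, 37.9% and 36.5% of genes with Royalactin.

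**Figure D3:**
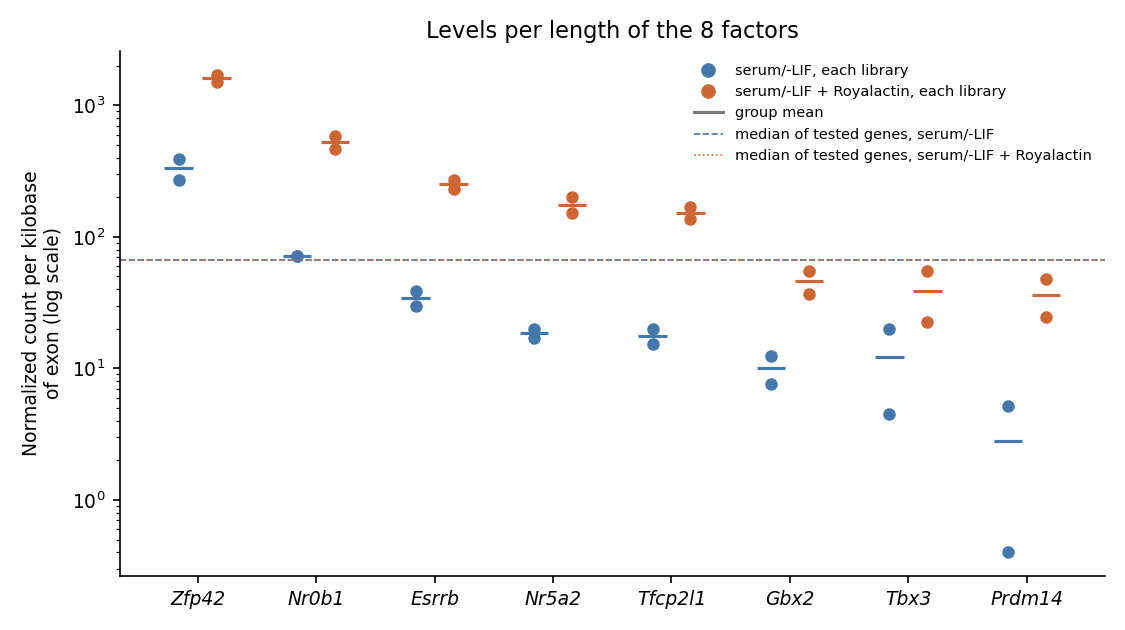
Normalized count per kilobase of exon (log axis) of the 8 factors in each library, blue for serum/-LIF and orange for serum/-LIF + Royalactin, with a short line at each group mean and dashed and dotted lines at the medians of tested genes (67.2 and 66.8). Nr5a2, Tfcp2l1 and Esrrb lie below these medians in serum/-LIF and above them with Royalactin, and Gbx2, Tbx3 and Prdm14 lie below in both groups.

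The naive factors were next set against Pou5f1, the core factor that marks pluripotent cells in either state, whose normalized count was 4996 and 5407 in serum/-LIF and 5140 and 7453 with Royalactin (log2 fold change 0.25, limma adjusted p = 0.854). Zfp42, whose level is uncertain, amounted to 9.82% and 13.0% of the normalized count of Pou5f1 in serum/-LIF and to 53.0% and 41.4% with Royalactin. Esrrb stood at 4.66% and 3.35% of Pou5f1 in serum/-LIF against 31.9% and 18.6% with Royalactin, and Tfcp2l1 at 3.69% and 2.64% against 30.4% and 16.9%. Against Pou5f1, then, these factors were higher in both Royalactin libraries. Nr0b1 had 2.60% and 2.39% in serum/-LIF and 16.4% and 14.2% with Royalactin, and Nr5a2 had 1.53% and 1.21% in serum/-LIF and 14.9% and 7.80% with Royalactin. Gbx2 (0.642% and 0.976% against 4.56% and 2.08%) and Prdm14 (0.268% and 0.0191% against 1.23% and 1.64%) did not overlap between groups either. Tbx3 did overlap, at 0.482% and 1.97% in serum/-LIF and 5.73% and 1.63% with Royalactin. How many of all tested genes lay above without overlap relative to Pou5f1 was not computed. The share of 19.7% holds for the deposited scaling only, so these values are descriptive.

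Among 15 other genes of the naive network, 4 rose, against 0.331% of all tested genes called higher, and 0 fell, with a median log2 fold change of 1.52. Klf4, a Krüppel-like factor and Stat3 target, had 30.8 and 18.6 normalized counts in serum/-LIF and 485 and 277 with Royalactin (log2 fold change 3.88, limma adjusted p = 0.00787). Tcl1, an Akt co-activator, rose by 3.81 on the log2 scale (limma adjusted p = 0.0261), Tet2, which oxidises methylcytosine, by 2.37 (limma adjusted p = 0.00333), and Sox2, the partner of Oct4, by 1.52 (limma adjusted p = 0.0368). The median of the 8 factors was 2.87, and a difference between the lists was not tested. Without serum/-LIF replicate 2, Klf4, Tcl1 and Tet2 passed and Sox2 did not (limma adjusted p = 0.0805). With a pseudocount of 0.1 or no filter on low values 2 of the 15 were called, and Sox2 was not among them. Sox2 was also not called under scaling to Pou5f1.

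Proteins that work with the 8 factors were read as well. Of the 3 co-regulators, 0 passed the adjusted threshold in limma and 2 had an unadjusted p under 0.05, a limit that 9.34% of all tested genes passed in either direction. Ncoa3, the co-activator that Esrrb recruits, had 1061 and 939 normalized counts in serum/-LIF and 2534 and 2148 with Royalactin, a difference of 1.22 in log2 (limma adjusted p = 0.111). The values of Rlim, the ubiquitin ligase that targets Zfp42 protein, overlapped, at 7054 and 7126 against 8677 and 6724 (log2 fold change 0.11). Of 6 genes that Prdm14 is known to repress, 0 passed in limma, 1 had an unadjusted p under 0.05 (9.34% of all tested genes), and the median was 0.08. Dnmt3l, the cofactor of the de novo methyltransferases, had the highest difference at 1.05 (limma adjusted p = 0.180) and Dnmt3b the lowest at -0.45 (limma adjusted p = 0.735).

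The upstream inputs were read at the RNA level, which does not measure signalling. Of the 6 LIF-Stat3 genes, 1 rose, against 0.331% of all tested genes called higher. It was Lifr, the LIF receptor, which had 309 and 252 normalized counts in serum/-LIF and 1505 and 1312 with Royalactin (log2 fold change 2.33, limma adjusted p = 0.00460). At an unadjusted p under 0.05 in limma, 4 of the 6 were higher and 1 was lower, beside 9.34% of all tested genes in either direction. Besides Lifr the higher ones were Stat3 (1.62), Socs3 (1.41) and Il6st (0.75), all uncalled. Jak2, the receptor-associated kinase, had the lowest difference at -1.48, with 203 and 377 against 128 and 76.4 normalized counts (limma adjusted p = 0.323). Of the 7 Wnt and Tcf3 genes, 0 passed in limma and 1 had an unadjusted p under 0.05, which is near the share of 9.34% over all tested genes, with differences from -0.22 for Tcf7 to 1.00 for the co-repressor Tle4 (limma adjusted p = 0.237). Of the 11 Fgf-Erk genes, 0 passed in limma and 3 had an unadjusted p under 0.05, beside the same share of 9.34%. Spry4, a feedback inhibitor of the pathway, had 340 and 23.8 normalized counts in serum/-LIF and 857 and 542 with Royalactin (log2 fold change 2.89, limma adjusted p = 0.210), a wide spread within serum/-LIF. Dusp6, the Erk phosphatase and a readout of the pathway, had 2524 and 2611 against 1176 and 1141 (log2 fold change -1.15, limma adjusted p = 0.132), with tight replicates and no overlap.

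Among 13 genes of the formative and primed epiblast, 1 fell, against 0.162% of all tested genes called lower, and 0 rose, with a median of -0.39. Fgf5, the classic marker of the primed epiblast, had 380 and 433 normalized counts in serum/-LIF and 67.4 and 90.9 with Royalactin (log2 fold change -2.36, limma adjusted p = 0.0356), and it was not called once any 1 library was left out (-2.57 to -2.15, limma adjusted p = 0.107 to 0.662). It was also not called with a pseudocount of 0.1, without the filter, or under upper-quartile scaling or scaling to the total without Rn45s. Tcf15, a formative-state factor, had the highest difference of this list at 1.05 (limma adjusted p = 0.510).

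Close relatives allow a comparison within gene families for Tfcp2l1, Esrrb, Zfp42 and Prdm14 only. No listed relative of Nr5a2, Nr0b1, Tbx3 or Gbx2 passed the filter on low values. Of 25 relatives, 14 passed the filter on low values, and 0 of these passed the adjusted threshold in limma. Of the 14, 1 had an unadjusted p under 0.05, near the share of 9.34% over all tested genes, and the median was 0.27. Tfcp2 and Ubp1, the paralogs of Tfcp2l1, differed by 0.06 and 0.36 in log2, and Esrra, the ubiquitous relative of Esrrb, by 0.12. Yy1, from which the Zfp42 family derives, differed by -0.06 and the retrogene Yy2 by 0.34. Among the Prdm genes the highest difference was that of Prdm11 (1.89, limma adjusted p = 0.816), which rested on 0 to 21 reads a library. Prdm13, a neural PR-domain gene, had the lowest, with 22 and 35 reads in serum/-LIF and 0 and 0 with Royalactin (limma adjusted p = 0.437). A difference between each factor and its relatives was not tested.

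**Figure D4:**
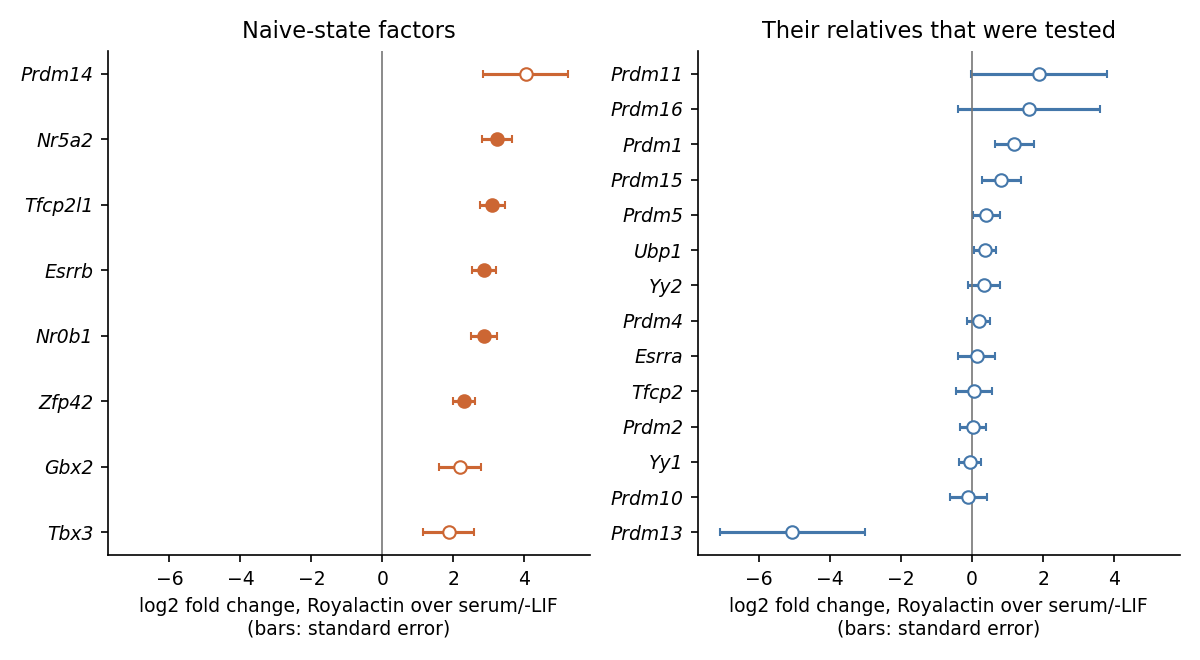
Log2 fold change with its standard error for the 8 factors (left, orange) and for their 14 tested relatives (right, blue), with filled points for genes that passed the adjusted threshold. The 5 filled points are all naive-state factors, between 2.30 and 3.22, and the relatives of Tfcp2l1, Esrrb and Zfp42 lie between -0.06 and 0.36.

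The genes whose pattern over the 4 libraries lay nearest to the mean pattern of the 8 factors, by Euclidean distance between centred log2 values, were Mep1b (0.0724), Lrrc34 (0.195), Mreg (0.227), 4833417C18Rik (0.254) and Arl14epl (0.320). Mreg, melanoregulin, had 213 and 179 normalized counts in serum/-LIF and 1298 and 1128 with Royalactin (log2 fold change 2.63, limma adjusted p = 0.00333), and Lrrc34, a leucine-rich repeat gene, had 49.5 and 39.3 against 329 and 306 (log2 fold change 2.82, limma adjusted p = 0.0264). Mep1b, 4833417C18Rik and Arl14epl did not pass the threshold (limma adjusted p = 0.142, 0.340 and 0.210). All these genes were chosen for nearness to the mean pattern of the 8 factors over the same 4 libraries. Their rise, its size and the closeness of their replicates were thus built into the choice. The limma values of these genes are therefore descriptive and no separate test of a shared rise. Of the factors themselves, Esrrb was nearest to that mean at 0.229, and Tbx3 (1.95) and Prdm14 (2.44) were farthest.

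Markers of other cell types moved beside these results, and their part in them was not tested. Of 8 trophoblast markers 4 were tested and 1 fell, against 0.162% of all tested genes called lower. It was Krt8, a keratin of simple epithelia (log2 fold change -2.34, limma adjusted p = 0.040). Krt8 was not called once any 1 library was left out (-3.09 to -1.58, limma adjusted p = 0.135 to 0.794). The summed normalized counts of this list were 1063 and 1029 in serum/-LIF and 259 and 430 with Royalactin, with Elf5 at 0 in all libraries. Without Krt8 the sums overlapped, at 181 and 131 against 155 and 134, and the median of the 4 tested genes was 0.26, with Krt7 the highest at 1.01 (limma adjusted p = 0.835).

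Of 10 neural markers 6 were tested and 1 fell, against 0.162% of all tested genes called lower. It was Nes, a neural progenitor filament that other cells also make (log2 fold change -1.95, limma adjusted p = 0.0166). Nes was called without serum/-LIF replicate 2 (-2.17) and not without any of the other libraries (-1.97 to -1.73, limma adjusted p = 0.185 to 0.743). The neural sums were 2512 and 1925 against 1451 and 1631, with Neurog2 at 0 throughout. Without Nes they were 1022 and 826 in serum/-LIF and 1117 and 1306 with Royalactin, so the lower total came from Nes, and 4 of the 6 tested genes had a difference above 0 (median 0.42). Pax6, an eye and forebrain factor, had the highest at 0.98 (limma adjusted p = 0.593).

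Of 10 fibroblast markers 4 were tested and 0 passed in limma, 2 with an unadjusted p under 0.05, beside 9.34% of all tested genes. The sums were 366 and 295 against 201 and 133, with Postn and Pdgfrb at 0 in every library. The lowest was Dcn, decorin, with 28 and 30 reads in serum/-LIF and 0 and 0 with Royalactin (limma adjusted p = 0.422), and no tested gene of the list had a difference above 0. Of 10 primitive endoderm markers 7 were tested and 0 passed in limma. Of the 7, 1 had an unadjusted p under 0.05, near the share of 9.34% over all tested genes. The sums of these markers overlapped, at 4928 and 2865 against 3839 and 3427. Their differences ran from -0.78 for Col4a1 (limma adjusted p = 0.506) to 2.38 for Pdgfra (limma adjusted p = 0.709), whose values overlapped between groups. Of the 10 embryonic stem cell markers, all tested, 1 rose, the Sox2 already described, against 0.331% of all tested genes called higher. Tdgf1 was lowest at -0.45 (limma adjusted p = 0.730).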

How the data were processed

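RNA-seq of 2 serum/-LIF and 2 serum/-LIF + Royalactin libraries was used, with groups and replicates from the sample labels. Another 30 samples of the series, all ATAC-seq, were not analysed here. Per the study's methods and the submitters' processing notes, the authors aligned 75-base reads to mm9 with TopHat (2 mismatches allowed), obtained gene counts from HTSeq-count and divided them by DESeq size factors. The deposited values are these normalized counts, a signal proportional to reads. The annotation and strand setting of the counting are not given in the sources used here. Date-like strings stood in place of 27 symbols. Every value was a whole multiple of its library's step to within 0.01 of a read. This step was 1.34 and 1.04 (serum/-LIF) and 1.01 and 0.688 (Royalactin), and it gave the read numbers. The step of Royalactin replicate 1 lies so close to 1 that a general check of the format did not accept its values as recovered reads, and no count test was run.

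Log2(normalized count + 1) of genes with a mean of at least 10 was tested with limma 3.58.1 in R 4.3.3 (eBayes with trend, two-sided, Benjamini-Hochberg over all tested genes), a step tested on simulated data. Positions and exon lengths came from the GENCODE annotation of mm9, where Tfcp2l1 was found under its older symbol Tcfcp2l1, for 93.1% of symbols. Exon tiles were mapped with minimap2 2.31-r1302. RefSeq promoter windows (GRCm38.p6 table) were placed on mm9 by exact match, so coordinates are of mm9. The lists besides the 8 factors were other naive genes, co-regulators, genes repressed by Prdm14, the LIF-Stat3, Wnt and Fgf-Erk inputs, formative genes, relatives and cell type markers. From each list the called genes and the largest rise and fall are named (the lowest of the other naive genes is not reported here), together with the closest relatives and the 5 genes nearest in pattern. Members, lists and tests were chosen with earlier results of these data known. The alternatives were other pseudocounts (0.1 and 5), filters and scalings, limma without the trend, a replicate block and each library left out in turn.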

Additional observations from a re-analysis of the deposited data

How the results depend on the processing

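The 5 called factors were the same genes under pseudocounts of 0.1 and 5, both other filters, upper-quartile scaling and scaling to the total without Rn45s. They were also the same under scaling to Pou5f1, an alternative chosen after seeing the data, whose calls are qualified below. No log2 fold change of a factor changed sign under any alternative. In limma without the trend 0 factors and 0 genes were called, although 7 factors had an unadjusted p under 0.05 at a 2-fold difference and 1135 genes an unadjusted p under 0.05. The log2 fold changes were then as before for Tfcp2l1 (3.10), Esrrb (2.87), Nr5a2 (3.22), Nr0b1 (2.86) and Zfp42 (2.30), without a call. For Tfcp2l1 the standard error was 0.354 without the trend and 0.346 in the main fit. Its unadjusted limma p was 6.9e-04 without the trend and 4.6e-07 in the main fit. With so similar a standard error, the higher p reflects fewer degrees of freedom. The other called factors were not examined in this way.

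With each library left out in turn, 0 to 5 factors and 0 to 60 genes of the whole table were called, from 64 with all libraries. With serum/-LIF replicate 1 left out 0 genes passed in limma (2518 at an unadjusted p under 0.05), with Royalactin replicate 2 left out 0 (547), and with Royalactin replicate 1 left out 4. A single library in a group is then assumed to vary like the other group. The log2 fold changes ranged from 2.92 to 3.29 for Tfcp2l1, 2.69 to 3.05 for Esrrb, 3.03 to 3.42 for Nr5a2, 2.69 to 3.02 for Nr0b1 and 2.04 to 2.56 for Zfp42.

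The whole-table count was 32 with a pseudocount of 0.1, 34 without a filter and 99 at a mean of at least 50. It was 105 with scaling to Pou5f1, split into 43 higher and 62 lower against 43 and 21 in the deposited scaling. Scaling to Pou5f1 moved the median of all genes to -0.26, and the median of the 8 factors to 2.61. Under it the standard error of Tfcp2l1 rose to 0.507 from 0.346, yet its unadjusted limma p fell to 1.8e-08 from 4.6e-07. The calls under this scaling therefore rest on the trend shared across genes, not on each gene's own replicates. The main fit also leaned on this trend, which supplied 11.5 of its 13.5 degrees of freedom. Of the 15 other naive genes, 2 were called with a pseudocount of 0.1 and without a filter, 6 with a pseudocount of 5 and at a mean of at least 50, and 4 under each scaling. Under scaling to Pou5f1 these 4 did not include Sox2. Fgf5 and Krt8 were not called with a pseudocount of 0.1, without a filter, or under upper-quartile scaling or scaling to the total without Rn45s, while Lifr and Nes were called under all of these.

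In the fit with a replicate block, 391 genes were called (222 higher, 169 lower) and 7 of the factors, with Gbx2 (2.18) and Prdm14 (4.04) added. For Tfcp2l1 the standard error was 0.348 in this fit and 0.346 in the main fit. Its unadjusted limma p nevertheless went from 4.6e-07 to 5.6e-19, the value of a normal distribution. The block fit thus took its spread from the trend shared across genes, not from each gene's own replicates. Same-numbered replicates deviated together only weakly (Pearson correlation 0.0851 across genes), so the numbers were not taken as a pairing. The Rn45s share was, however, higher in replicate 1 of both groups (46.6% and 38.4%) than in replicate 2 (21.6% and 9.08%). Whether same-numbered libraries were prepared together was not tested. The block also called 9 other naive genes and 2 formative genes against 4 and 1. With 2 libraries a group, the spread rests on few samples and on the trend shared across genes, and for Prdm14 the depth of 1 and 10 reads in serum/-LIF limits the precision.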

Other observations

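Of the 25 relatives of the 8 factors, 11 lay under the filter on low values. Nr5a1, the steroidogenic paralog of Nr5a2, had 6 and 22 reads in serum/-LIF and 0 and 0 with Royalactin, the reverse order of Nr5a2, and was not tested. Esrrg had 0 and 1 reads in serum/-LIF and 9 and 0 with Royalactin, Nr0b2 had 5 and 0 against 0 and 0, and Gbx1 had 8 and 0 against 7 and 0. Tbx2, the nearest paralog of Tbx3, had 0 and 0 reads against 0 and 6. Tbx5 and Prdm12 had 0 reads in all 4 libraries, where a floor of 3 reads corresponds to normalized counts between 2.07 and 4.01.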
